A study of Arabidopsis thaliana and Cardamine hirsuta and Capsella rubella with 102 samples.

Results

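Among 29458 gene rows of the Cardamine hirsuta count table, 76 genes met a rule for flg22 induction at 1 h and 9 h but not at 24 h. For each time, L was defined as log2((mean flg22 CPM + 1)/(mean mock CPM + 1)), where CPM is a gene's count scaled to the library's total over gene rows and the means run over 3 replicates. The genes were chosen by these measured values: genes with L of at least 1 at 1 h and at 9 h, L below 0.5 at 24 h and a mean count of at least 10 were taken. The 1, 9 and 24 h values of these genes in C. hirsuta thus describe the choice and are given without a test. Of the 20866 genes with a mean count of at least 10, 698 were induced at both early times, and the 76 genes are 10.9% of those. The remaining 622, with L of at least 0.5 at 24 h, are called the sustained genes below, a name that describes this threshold and no test.

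The study compared 12-day-old seedlings treated with 1 µM flg22 with mock-treated seedlings. The C. hirsuta accession was Oxford (Ox), sampled at 1, 9 and 24 h, with 3 flg22 and 3 mock libraries at each time. The same 18-library design was used for Arabidopsis thaliana Col-0, Capsella rubella N22697 and Eutrema salsugineum Shandong. The A. thaliana accessions Kon, Can-0, No-0, Gy-0 and Kn-0 were sampled at 1 h only, again with 3 flg22 and 3 mock libraries each. All are natural genotypes without a transgene. The 3 replicates came from independent experiments in which mock and flg22 seedlings were handled side by side, and each library pooled the seedlings of 3 wells. The C. hirsuta libraries held 22268601 to 36897285 gene-assigned reads, and the others 14039779 to 35607867.

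Flg22 is a peptide from bacterial flagellin that plants perceive through the receptor kinase FLS2. Perception starts pattern-triggered immunity, in which calcium influx, reactive oxygen and MAP kinase activation are followed within the hour by transcription of regulators, and later by genes for cell wall, hormone and metabolite changes. Many of the earliest induced transcripts encode unstable regulators whose levels return toward baseline. WRKY transcription factors bind the W-box, whose core is TTGAC, and are known as central regulators of flg22-induced transcription in A. thaliana.

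Of the 76 genes, 48 had a listed 1:1 ortholog in A. thaliana and are named by the symbol of that ortholog. The other 28 keep their C. hirsuta identifiers. Among the 48 were 7 transcription and RNA regulators, 11 genes of signaling and protein turnover, 7 of cell wall and defense, 4 transporters, 11 metabolic enzymes and 8 others, a grouping made after the values were seen. The upstream sequence was read for A. thaliana, since no C. hirsuta genome was used here. The sequences of 4 orthologs are shown because their values carry the results below, and they were chosen after those values were seen. They cover the 300 bases before the RefSeq gene start on TAIR10.1, 5′ to 3′ on the gene's strand, with the TTGAC core or its reverse complement GTCAA in capitals. TDR1 encodes an AP2/ERF transcription factor (chr3:8290165-8290464, minus strand), CHI a chitinase family protein (chr2:18077518-18077817, minus strand), PGIP1 an inhibitor of fungal polygalacturonases (chr5:2132050-2132349, plus strand) and PP2-B14 an F-box protein with a phloem protein domain (chr1:21063048-21063347, minus strand).
TDR1: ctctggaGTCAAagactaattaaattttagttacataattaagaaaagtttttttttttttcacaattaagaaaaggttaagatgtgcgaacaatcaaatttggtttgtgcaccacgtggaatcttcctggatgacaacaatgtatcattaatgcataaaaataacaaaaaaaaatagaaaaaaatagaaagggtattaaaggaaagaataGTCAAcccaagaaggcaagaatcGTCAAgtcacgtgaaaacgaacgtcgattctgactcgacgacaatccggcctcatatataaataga
CHI: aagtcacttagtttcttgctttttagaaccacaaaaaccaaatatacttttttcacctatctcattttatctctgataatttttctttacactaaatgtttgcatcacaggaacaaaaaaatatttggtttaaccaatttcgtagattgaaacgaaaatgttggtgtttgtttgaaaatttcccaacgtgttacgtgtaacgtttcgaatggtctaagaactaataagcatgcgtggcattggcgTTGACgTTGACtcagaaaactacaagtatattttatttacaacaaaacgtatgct
PGIP1: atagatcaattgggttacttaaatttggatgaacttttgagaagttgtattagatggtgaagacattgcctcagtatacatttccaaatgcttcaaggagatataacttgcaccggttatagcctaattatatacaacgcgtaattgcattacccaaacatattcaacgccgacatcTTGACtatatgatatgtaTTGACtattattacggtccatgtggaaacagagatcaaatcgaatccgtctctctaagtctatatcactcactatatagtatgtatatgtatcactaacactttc
PP2-B14: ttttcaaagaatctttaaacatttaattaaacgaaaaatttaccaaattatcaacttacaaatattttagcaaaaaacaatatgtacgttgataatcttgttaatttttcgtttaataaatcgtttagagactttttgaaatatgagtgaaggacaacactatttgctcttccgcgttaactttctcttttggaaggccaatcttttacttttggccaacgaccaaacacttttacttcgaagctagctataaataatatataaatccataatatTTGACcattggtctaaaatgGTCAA
The core was found 3 times for TDR1 and 2 times each for CHI, PGIP1 and PP2-B14. It was present in 33 of the 48 orthologs (68.8%), against 69.6% of the 362 orthologs of sustained genes, 56.7% of all 4539 listed orthologs with an upstream sequence and 50.4% of 27437 protein-coding genes. The longer motifs TTGACC and TTGACT, counted together on both strands, were present in 27 of the 48 (56.3%), against 54.4%, 38.6% and 32.3% in the same sets. The listed orthologs were mostly genes that responded in at least 1 species. ERF6 and NAC019 had no core in this window. A match describes letters only, and upstream windows may run into neighboring genes.

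The median L of the 76 genes was 2.01 at 1 h, 1.26 at 9 h and 0.36 at 24 h. Their ranges were 1.04 to 6.22, 1.02 to 3.57 and −0.81 to 0.50. Thus 68 of the 76 were induced more strongly at 1 h than at 9 h. The sustained genes had medians of 2.62, 1.53 and 1.11, and all genes −0.19, −0.03 and −0.06. At 24 h, 29 of the 76 lay between 0.4 and 0.5, 37 between 0 and 0.4, and 10 below 0. The rule therefore divides a continuum, with 27 sustained genes at 0.5 to 0.6. ESL1, a sugar transporter family gene, was the nearest inside the 1 h threshold (1.04) and CARHR152160 the nearest outside (1.00). At 9 h these were AT3G51440 (1.02), annotated as strictosidine synthase-like, and the transporter gene ZIFL1 (1.00), and at 24 h CARHR089600 (0.496) and CARHR122380 (0.509).

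The loss of induction at 24 h differed between the replicate pairs. All 3 flg22 libraries lay above all 3 mock libraries for 76 of 76 genes at 1 h, for 75 at 9 h and for 3 at 24 h. Over all genes tested the shares were 20.4%, 21.9% and 6.76%, and since the rule used these contrasts nothing is read from the difference. At 1 h the median log2 ratio was 1.91, 2.23 and 2.12 in replicates 1, 2 and 3. At 9 h it was 1.26, 1.28 and 1.47. At 24 h it was 0.68, 0.03 and 0.13. The median over genes of the SD between the pairs was 0.29 at 1 h, 0.44 at 9 h and 0.47 at 24 h. Thus single genes also varied between pairs at 9 h, where replicate 3 was the highest pair for 36 genes, whereas the median over genes shifted most at 24 h, with replicate 1 above the others. In replicate 1, 54 of the 76 genes were still at 0.5 or more at 24 h, against 7 in replicate 2 and 11 in replicate 3. Replicate 1 was the highest of the 3 pairs at 24 h for 59 genes. Only 14 genes were below 0.5 in all 3 pairs at 24 h. The sustained genes showed the same order, with medians of 1.63, 0.61 and 0.88, while all genes had −0.11, −0.05 and −0.05.

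**Figure D1:**
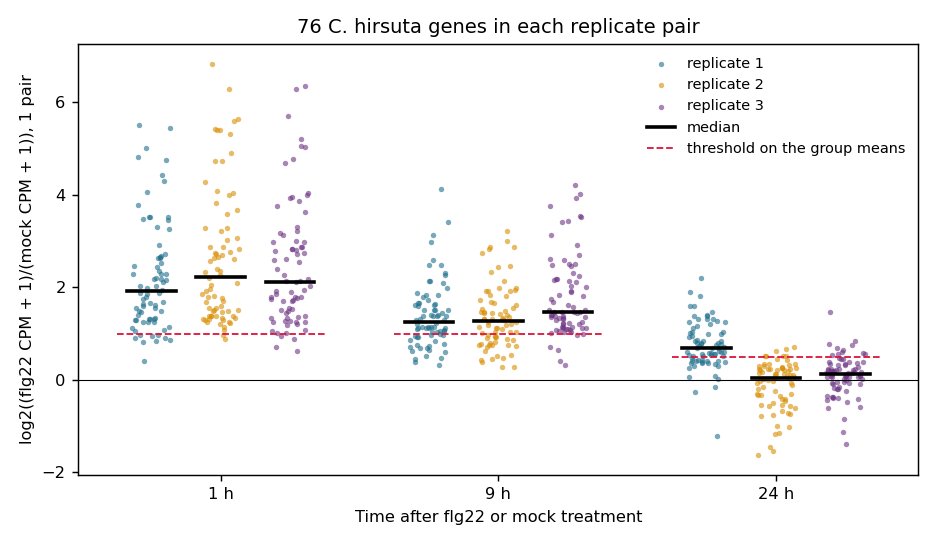
Log2((flg22 CPM + 1)/(mock CPM + 1)) of the 76 C. hirsuta genes (y axis) in each replicate pair at 1, 9 and 24 h (x axis), 1 point per gene, with the median as a black bar and the threshold on the group means as a dashed line. The medians lie within 1.26 to 1.47 at 9 h, and at 24 h replicate 1 (0.68) stands above replicates 2 (0.03) and 3 (0.13).

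Replicates that had no part in the choice were then compared. When the rule was applied to replicates 2 and 3 alone it took 289 genes, 63 of them among the 76. In replicate 1, which was held out, these had medians of 2.61 at 1 h, 1.17 at 9 h and 1.42 at 24 h, and only 19 of 289 (6.57%) were below 0.5 at 24 h. Without replicate 2 the rule took 51 genes, with held-out medians of 1.62, 0.87 and 0.24 and 40 of 51 below 0.5 at 24 h. Without replicate 3 it also took 51 genes, with held-out medians of 1.86, 1.33 and 0.22 and 36 of 51 below 0.5. The held-out medians of the sustained genes at 24 h were 1.69, 0.52 and 0.90 in replicates 1, 2 and 3, and those of all genes −0.11, −0.05 and −0.05, so that values below 0.5 were common in replicate 2. At 9 h, 189 of 289, 22 of 51 and 42 of 51 genes reached 1 in held-out replicates 1, 2 and 3. The induction at 1 h was thus seen in every held-out replicate, that at 9 h for a minority of the genes in replicate 2, and low values at 24 h in replicates 2 and 3 and not in replicate 1. The phrase "until 9 h only" describes the group means and not each experiment.

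Levels under each treatment showed what moved between 9 h and 24 h. The median level of the 76 genes, as log2(CPM + 1) of the group mean, was 5.33, 4.60 and 4.42 in flg22 seedlings at 1, 9 and 24 h, against 2.51, 3.15 and 4.10 in mock seedlings. From 9 h to 24 h the median change was −0.30 in flg22 seedlings and 0.87 in mock seedlings. The mock level was higher at 24 h than at 9 h for 63 genes, and the flg22 level was lower for 46. The mock change exceeded the flg22 change in size, in the direction that narrows the difference, for 48 genes. In the group means, most of the narrowing between 9 h and 24 h thus lay in the mock level. The median of all genes changed by −0.00 in flg22 and 0.02 in mock seedlings, and that of the sustained genes by 0.03 and 0.48. A mock change of at least 1 was found for 32 of the 76 genes, against 24.1% of the sustained genes and 6.27% of all genes. Both values follow in part from the rule, which selects high mock levels at 24 h. Per library, the 24 h medians were 5.09, 4.16 and 3.83 in flg22 replicates 1, 2 and 3, against 4.18, 4.32 and 3.58 in mock replicates. Thus 2 of 3 flg22 libraries lay within the mock range. The 9 h medians were 4.40, 4.34 and 4.73 in flg22 replicates, against 2.95, 3.10 and 2.79 in mock replicates. From 9 h to 24 h the flg22 median thus rose in replicate 1 and fell in replicates 2 and 3. In replicate 3 the flg22 fall was larger than the mock rise. In whole seedlings, fewer cells of a type and less RNA per cell cannot be told apart.

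**Figure D2:**
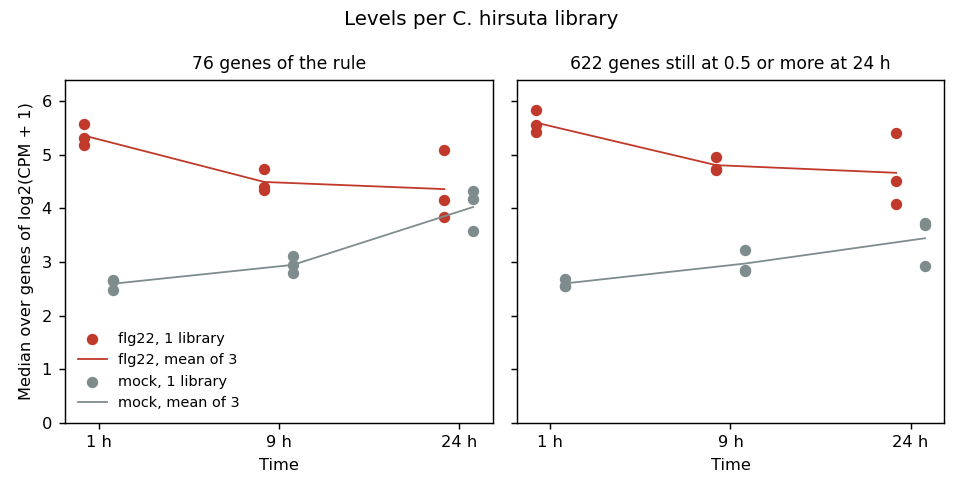
Median over genes of log2(CPM + 1) in each C. hirsuta library (y axis) at 1, 9 and 24 h (x axis), for flg22 and mock libraries, with lines through the means of 3, for the 76 genes and for the 622 sustained genes. For the 76 genes the mock libraries rise toward the flg22 libraries at 24 h, where the groups overlap.

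Leaf and root marker genes were read in the same libraries. The summed CPM of the leaf markers was 2590 to 2937 in flg22 against 3686 to 4576 in mock libraries at 1 h, 1550 to 2201 against 2719 to 3344 at 9 h, and 872 to 2711 against 1635 to 2716 at 24 h. Leaf markers were thus lower after flg22 at 1 h and 9 h, without overlap, and overlapped at 24 h. The leaf marker LHCB6 was at 0 in all 18 libraries. The 4 root markers summed to 40.1 to 53.8 CPM in flg22 against 69.1 to 93.9 in mock libraries at 1 h, 76.3 to 84.6 against 86.8 to 150 at 9 h, and 117 to 199 against 174 to 195 at 24 h. The root marker sum was thus also lower after flg22 at 1 h and 9 h, without overlap, and overlapped at 24 h. It mostly reflected NRT1.1, with a median of 71.9 CPM over all libraries against 90.3 for the sum. The median L of the 4 root markers was 0.08 at 1 h and −0.19 at 9 h. The lower sum at 1 h therefore does not describe each root marker. In mock libraries the median root marker sum was 115 at 9 h and 188 at 24 h. This is a rise of the sum alone, since single root markers were not compared between these times. The part of these differences in the results was not tested.

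The transcription and RNA regulators had median L of 2.78, 1.78 and 0.26 at 1, 9 and 24 h. They comprised the AP2/ERF factors ERF6 and TDR1, the NAC factor NAC019, the DOF factor DOF1, the CCCH zinc finger gene SZF1, the deadenylase gene CAF1a and the VQ motif gene AT4G37710. ERF6, which acts downstream of MAP kinases in A. thaliana, had 27.4, 41.9 and 24.6 CPM in flg22 seedlings at 1 h, against 0.709, 1.24 and 0.749 in mock seedlings. At 9 h it had 2.18, 3.31 and 9.71 CPM against 0.533, 0.399 and 0.43, and at 24 h 5.32, 1.97 and 1.98 CPM against 1.09, 1.97 and 2.9. ERF6 was thus far above mock at 1 h in every pair, and at 24 h well above mock in replicate 1 alone. TDR1 had 34.1, 59.7 and 35.4 CPM after flg22 at 1 h, against 0.299, 0.438 and 0.416 in mock seedlings. Its 24 h values were 3.98, 2.18 and 0.758 CPM against 0.791, 2.74 and 0.692, with overlapping groups. NAC019 behaved otherwise, since its 24 h values were high in both treatments. It had 12.8, 13.4 and 15 CPM after flg22 at 9 h, against 4.61, 2.63 and 2.65 in mock seedlings, and 37.3, 28.9 and 17.5 CPM at 24 h, against 35, 24.9 and 12.5. The flg22 level of NAC019 was thus higher at 24 h than at 9 h, and the mock level had reached it.

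The signaling and turnover group had median L of 2.28, 1.15 and 0.40. It held the kinase genes AGC2-1 and CIPK13, the receptor-like kinase gene CCR3, the phosphatase gene ABI1, a negative regulator of abscisic acid signaling, the F-box genes PP2-B14 and FBS1, and the ubiquitin ligase gene RING1. PP2-B14 had 48.2, 98.8 and 80.7 CPM after flg22 at 1 h, against 0.522, 0.996 and 0.583 in mock seedlings. At 9 h it had 3.79, 6.49 and 13 CPM against 0.69, 0.359 and 0.215, and at 24 h 6.74, 2.05 and 0.692 CPM against 1.09, 7.3 and 1.52. In mock replicate 2 at 24 h it was thus above all flg22 libraries of that time. PP2-B14 has close relatives in tandem in A. thaliana, between which reads could be split. FBS1 had 20.4, 7.06 and 3.13 CPM after flg22 at 24 h, against 8.24, 6.52 and 7.99 in mock seedlings, again above mock mainly in replicate 1.

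Among cell wall and defense genes (median L 1.85, 1.26 and 0.36), the gene with the highest L at 9 h was CHI, with 14.1, 13.6 and 14.2 CPM after flg22, against 0.721, 0.997 and 0.43 in mock seedlings. At 24 h CHI had 38.2, 20.4 and 8.73 CPM after flg22, against 14.1, 35.8 and 6.12 in mock seedlings. Both groups were thus higher at 24 h than at 9 h in most libraries, and they overlapped. The dirigent family gene AT1G65870 had 9.79, 13.9 and 19.3 CPM after flg22 at 9 h, against 0.94, 0.598 and 1.33, and 87, 31.5 and 16.9 CPM at 24 h, against 35.4, 39.3 and 22.9 in mock seedlings. It showed the largest mock rise from 9 h to 24 h among the 48 genes with an ortholog, 4.10 on the log2(CPM + 1) scale, followed by CHI with 3.52. PGIP1 had 93, 159 and 74.1 CPM after flg22 at 9 h, against 51.7, 35.6 and 30.3 in mock seedlings. At 24 h it had 67.9, 47.4 and 33.4 CPM after flg22, against 50.6, 32.7 and 28.8. For PGIP1 it was thus the flg22 level that fell, by 1.12, while the mock level changed by −0.07. The proline-rich protein gene AT5G12880 and the peroxidase gene AT4G37520 had L of 0.29 and 0.36 at 24 h.

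The metabolic enzymes had median L of 1.91, 1.20 and 0.32. LOX4, a 13-lipoxygenase gene of jasmonate synthesis, had 27.5, 49.2 and 32.8 CPM after flg22 at 1 h, against 4.25, 5.22 and 4.04 in mock seedlings. At 9 h it had 14.7, 15.4 and 33.5 CPM against 8.78, 6.58 and 5.95, and at 24 h 31.2, 10.2 and 12.4 CPM against 19.1, 15.6 and 11. In replicate 2 at 24 h LOX4 was thus lower after flg22 than in mock. SAL2, an inositol phosphate phosphatase family gene, had 13.1, 12.2 and 14.3 CPM after flg22 at 9 h, against 0.784, 3.11 and 1.69, and 55.2, 34.8 and 20.7 CPM at 24 h, against 17.6, 58.7 and 6.85 in mock seedlings. As for CHI and PP2-B14, mock replicate 2 was the highest mock library of SAL2 at 24 h.

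Of the 4 transporter genes (median L 1.78, 1.39 and 0.41), the mitochondrial carrier gene DIC2 had the highest L at 1 h, 6.08. It had 185, 366 and 253 CPM after flg22 at 1 h, against 3.1, 3.71 and 2.12 in mock seedlings, and 29, 17.9 and 6.85 CPM at 24 h, against 11, 16 and 10.9. DIC2 thus retained at 24 h a small part of its early level. Among the 8 other genes, AT2G40520 was induced more at 9 h than at 1 h, with 51.6, 57.6 and 66.6 CPM after flg22 at 9 h, against 3.95, 10.6 and 13.9 in mock seedlings. Its 24 h values were 38.6, 15.9 and 6.33 CPM, against 21.9, 15.6 and 8.68. AT2G04515 had 10.2, 12.9 and 33.5 CPM after flg22 at 9 h, against 1.35, 0.957 and 1.25, and 23.4, 13.5 and 3.16 CPM at 24 h, against 9.92, 31.2 and 1.42. The AAA-type ATPase gene AT3G28580 had 410, 216 and 124 CPM after flg22 at 24 h, against 236, 200 and 102 in mock seedlings. AT5G11140 had 4.69, 6.79 and 16.4 CPM after flg22 at 9 h, against 0.157, 0.439 and 0.287. For all 4 of these genes the replicate 1 pair still showed more transcript after flg22 at 24 h.

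The 28 genes without a listed ortholog had median L of 2.14, 1.28 and 0.33. CARHR138800 had the highest L at 9 h of all 76 genes (3.57), with 272, 214 and 126 CPM after flg22, against 14.7, 28.2 and 5.88 in mock seedlings. At 24 h it had 46.3, 31.6 and 20.9 CPM after flg22, against 31.2, 33.3 and 13.7. Its flg22 level fell by 2.59 from 9 h to 24 h on the log2(CPM + 1) scale, the largest fall among the 76. CARHR265700 had the highest L at 1 h (6.22), with 197, 381 and 277 CPM after flg22, against 3.55, 2.35 and 2.58. At 24 h it had 83.2, 24.8 and 7.02 CPM after flg22, against 17.2, 56.9 and 8.2 in mock seedlings, with 1 of 3 pairs higher after flg22.

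**Figure D3:**
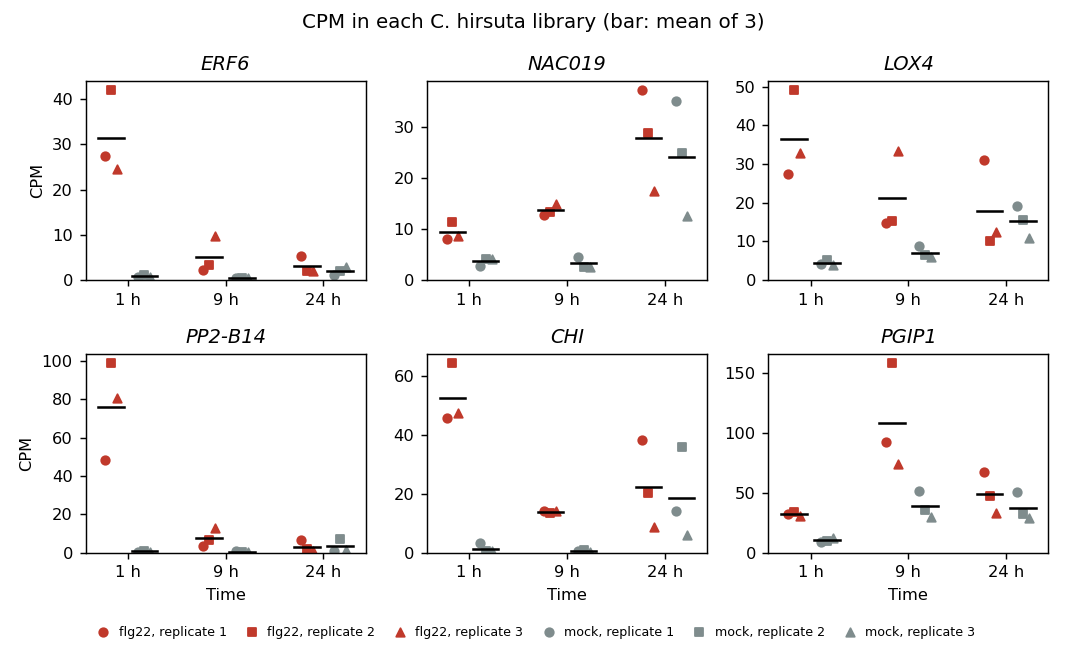
CPM (y axis) of ERF6, NAC019, LOX4, PP2-B14, CHI and PGIP1 in each C. hirsuta library at 1, 9 and 24 h (x axis), flg22 left of mock, with 1 marker shape per replicate and a bar at the mean of 3. Flg22 and mock libraries separate at 1 h and 9 h and overlap at 24 h.

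Whether the orthologs lost induction between 9 h and 24 h in the other species was tested in edgeR, with the replicate as a block and adjusted p-values over all genes. A gene was called at an adjusted p below 0.01 and a log2 fold change past 1. In C. hirsuta itself the same fit called 73, 51 and 0 of the 76 genes upregulated at 1, 9 and 24 h (10.3%, 3.91% and 1.28% of all genes), and a lower effect at 24 h than at 9 h for 1 of 76 (0.00958%). Of the 622 sustained genes the fit called 163 (26.2%) upregulated at 24 h. The rule used these contrasts, so nothing is read from these counts.

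At 1 h most orthologs were induced in every other species. In Col-0 32 of 47 tested were upregulated (9.64% of all genes), with a median log2 fold change of 1.83. In C. rubella 38 of 47 were upregulated (13.8% of all genes), with a median of 2.68. In E. salsugineum 32 of 47 were upregulated (10.7% of all genes), with a median of 1.79. These shares of 68.1%, 80.9% and 68.1% compare with 87.4%, 90.5% and 91.5% for the orthologs of sustained genes. Of all listed orthologs, mostly responsive genes, 27.3%, 40.6% and 33.1% were upregulated at 1 h in the same species. Upregulation at 1 h in all 3 species was found for 25 genes, and in none for 5 (BGLU40, SMT3, RING1, AT5G38130 and RFNR1, named after their values were seen). Of these AT5G38130 was tested in C. rubella alone, as its counts were too low elsewhere. For the counts over all 3 species together no share of all genes was computed, and nothing is read from them.

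At 24 h the orthologs were called upregulated in Col-0 and C. rubella about as often as, or more often than, at 9 h. In Col-0 22 of 47 were upregulated at 9 h (6.51% of all genes) and 23 at 24 h (6.06%). In C. rubella 10 were upregulated at 9 h (1.65%) and 20 at 24 h (6.31%). The numbers for E. salsugineum were 9 (2.48%) and 6 (2.83%). The median log2 fold changes at 9 h and 24 h were 0.90 and 1.08 in Col-0, 0.63 and 1.11 in C. rubella, and 0.64 and 0.42 in E. salsugineum. These counts depended on single replicates. In Col-0 15 were upregulated at 24 h without replicate 1. In C. rubella 6, 0 and 2 were upregulated at 9 h without replicates 1, 2 and 3, and 11 and 12 at 24 h without replicates 2 and 3. For E. salsugineum 5 and 2 were upregulated at 9 h without replicates 2 and 3, and 3 at 24 h without replicate 1. At 24 h 29 of the 48 genes were upregulated in at least 1 other species and 19 in none. Upregulation at both 9 h and 24 h was found for 16 in Col-0, 10 in C. rubella and 3 in E. salsugineum. In C. rubella 10 others were upregulated at 1 h and 24 h but not called at 9 h. No share of all genes was computed for these counts, so nothing is read from them. The shares called at 24 h were 48.9%, 42.6% and 12.8% in Col-0, C. rubella and E. salsugineum. Those of the orthologs of sustained genes were 74.3%, 76.0% and 39.8%. Of all listed orthologs 15.7%, 4.50% and 7.39% were upregulated at 9 h in the same species, and 15.4%, 17.2% and 7.60% at 24 h.

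**Figure D4:**
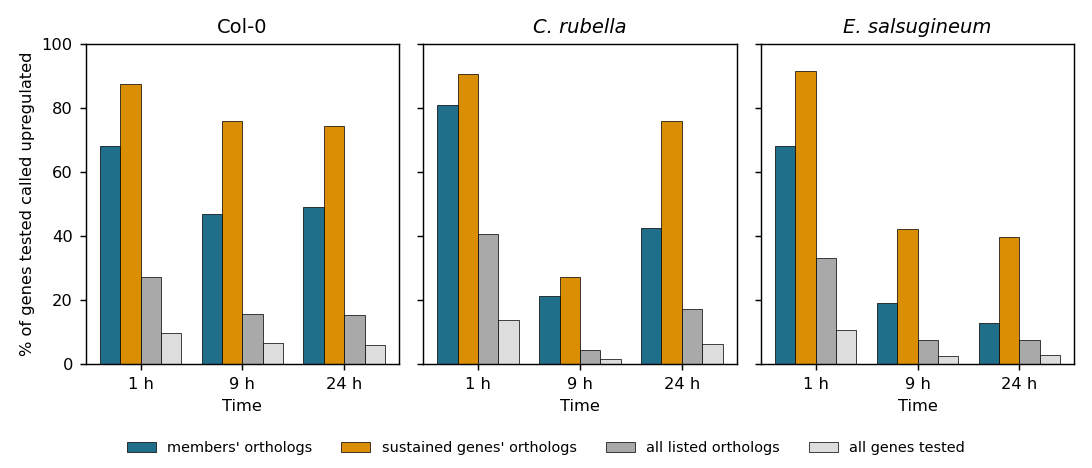
Share of tested genes called upregulated by edgeR (y axis, %) at 1, 9 and 24 h (x axis) in Col-0, C. rubella and E. salsugineum, for the orthologs of the 76 genes, of the sustained genes, all listed orthologs and all genes. At 24 h the first share is 48.9% in Col-0, 42.6% in C. rubella and 12.8% in E. salsugineum, below that of the sustained orthologs in each. Leaving out 1 replicate lowered the first count at 24 h to as few as 15, 11 and 3 genes.

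The change itself, the flg22 effect at 24 h minus that at 9 h, was called for 1 ortholog in 1 species. In Col-0 1 of 47 was lower at 24 h (0.0641% of all genes) and 0 were higher (0.153%). The unadjusted p was below 0.05 for 9 lower and 10 higher, and DESeq2 called 5 lower. In C. rubella 0 of 47 were called lower (0.0152% of all genes) or higher (0.106%), with 1 lower and 10 higher at an unadjusted p below 0.05 and 0 lower in DESeq2 and limma-voom. In E. salsugineum 0 of 47 were called lower (0.00504%) or higher (0%), with 4 lower and 2 higher at an unadjusted p below 0.05. The median differences were −0.09, 0.36 and −0.06 in Col-0, C. rubella and E. salsugineum. The rule itself, applied to CPM in each species, was met by 5, 1 and 3 of 47 orthologs. That compares with 0.172%, 0.0203% and 0.227% of all genes there. The rule of the sustained genes was met by 13, 10 and 10 of 47, against 3.5%, 2.03% and 1.72% of all genes. Both rules were thus met by a larger share of these orthologs than of all genes in each species. Of the 362 orthologs of the sustained genes, 3, 0 and 10 met the rule itself. The rule of the sustained genes was met by 232, 142 and 150 of those 362. The difference between the 2 sets of orthologs was not tested.

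The ortholog called in Col-0 was PGIP1. Its effect at 24 h minus 9 h was −2.35 ± 0.32 (log2, SE; adjusted p = 0.00188), with n = 3 pairs at each time in edgeR. It was not called without the block (−2.38) or without any 1 replicate (−2.30, −2.68 and −2.01 without replicates 1, 2 and 3). PGIP1 had 518, 329 and 453 CPM in flg22 Col-0 seedlings at 9 h, against 97.1, 70.2 and 71.1 in mock seedlings. Its 24 h values were 211, 160 and 158 CPM, against 212, 88.2 and 180. Thus at 9 h the groups were far apart, and at 24 h they overlapped, with a higher mock level than at 9 h. In C. rubella PGIP1 remained induced at 24 h (1.81 ± 0.35, edgeR adjusted p = 0.00151), as in E. salsugineum (1.66 ± 0.26, adjusted p = 6.43e-04). These calls were lost without replicate 2 or 3 in C. rubella, and without replicate 1 or 3 or without the block in E. salsugineum. In Col-0 the difference was −1.71 for PMZ, −1.58 for GAT1_2.1, −1.49 for AT5G38200 and −1.26 for AT2G41380. These 4, named after their values were seen, were called by DESeq2 but not by edgeR (adjusted p = 0.0212, 0.0325, 0.0247 and 0.0402).

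Upregulation at 24 h in all 3 other species was found for ERF6, AT5G12880 and AT4G37520. Of the 12 genes named for the highest L at 9 h, AT2G04515, AT1G65870 and SAL2 were upregulated at 24 h in none. At 1 h AT2G04515 and SAL2 were upregulated in all 3 species, and AT1G65870 in 1. ERF6 had 23.8, 23.9 and 21.4 CPM in flg22 Col-0 seedlings at 24 h, against 6.9, 2.29 and 4.99 in mock seedlings. In C. rubella it had 12.3, 5.2 and 5.36 CPM against 1.24, 0.747 and 1.35, and in E. salsugineum 4.24, 6.94 and 4.63 CPM against 1.73, 1.65 and 2.26. The groups did not overlap in any of the 3 species, with log2 fold changes of 2.38 ± 0.27, 2.74 ± 0.44 and 1.51 ± 0.25 (SE, edgeR). The E. salsugineum call was lost without replicate 1 or 2. The 24 h log2 fold change of AT4G37520 was 2.23 ± 0.19 in Col-0, 1.52 ± 0.18 in C. rubella and 1.11 ± 0.24 in E. salsugineum, where the call was lost without the block or any 1 replicate. That of AT5G12880 was 1.25 ± 0.22, 1.98 ± 0.40 and 1.96 ± 0.25 in the same order, and its calls were lost without replicate 1 in Col-0, without replicate 2 or 3 in C. rubella and without the block in E. salsugineum.

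Of the 7 regulators, a group made after the values were seen, 7 were upregulated at 24 h in Col-0, 5 in C. rubella and 1 in E. salsugineum, against 6.06%, 6.31% and 2.83% of all genes. At 1 h 6 were upregulated in Col-0, and 7 each in C. rubella and E. salsugineum. At 1 h TDR1 had 14.8, 12 and 21.2 CPM in flg22 Col-0 seedlings, against 0.115, 0.0757 and 0.0362 in mock seedlings. In C. rubella it had 221, 195 and 214 CPM against 0.0317, 0.0376 and 0.113, and in E. salsugineum 150, 146 and 136 CPM against 0.31, 0.721 and 0.0371. TDR1 was thus nearly absent from mock seedlings of all 3 species at 1 h. At 24 h its log2 fold change was 3.83 ± 0.54 in Col-0 and 4.90 ± 0.61 in C. rubella, both upregulated in edgeR. In E. salsugineum it was 4.35 ± 1.05 (adjusted p = 0.0142), past the fold threshold but not called. NAC019 was upregulated at 24 h in Col-0 (1.37 ± 0.20), a call lost without the block, and was not called so in C. rubella or E. salsugineum.

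LOX4, PGIP1 and PP2-B14 were the genes upregulated at 9 h in all 3 other species. LOX4 had log2 fold changes of 6.84, 2.19 and 1.98 at 1, 9 and 24 h in Col-0, 5.13, 1.83 and 2.49 in C. rubella, and 7.43, 2.92 and 0.84 in E. salsugineum, of which the last was not called. PP2-B14 had 9.09, 3.43 and 5.04 in Col-0, 8.89, 3.37 and 5.64 in C. rubella, and 6.29, 2.53 and 1.55 in E. salsugineum, the last again not called. Thus both stayed induced at 24 h in Col-0 and C. rubella. The 9 h calls in C. rubella were lost without replicate 1 or 2 for LOX4 and without replicate 2 for PP2-B14, and those in E. salsugineum without replicate 3 for LOX4 and without replicate 2 or 3 for PP2-B14. The LOX4 calls at 24 h were lost without replicate 1 in Col-0 and without replicate 2 in C. rubella. CHI had 175, 99.9 and 97.1 CPM in flg22 Col-0 seedlings at 24 h, against 6.96, 15.9 and 6.59 in mock seedlings (log2 fold change 3.61 ± 0.35). The groups did not overlap in Col-0 at 24 h. Of the 3 other species, CHI was called upregulated at 24 h in only 1. The mock values of CHI at 24 h in Col-0 and C. hirsuta overlapped. Each species was counted on its own genome, so nothing is read from this about levels between species. DIC2 was upregulated at 24 h in Col-0 (2.26 ± 0.28) and C. rubella (2.07 ± 0.41, lost without replicate 1 or 2), and not in E. salsugineum (1.17 ± 0.46).

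**Figure D5:**
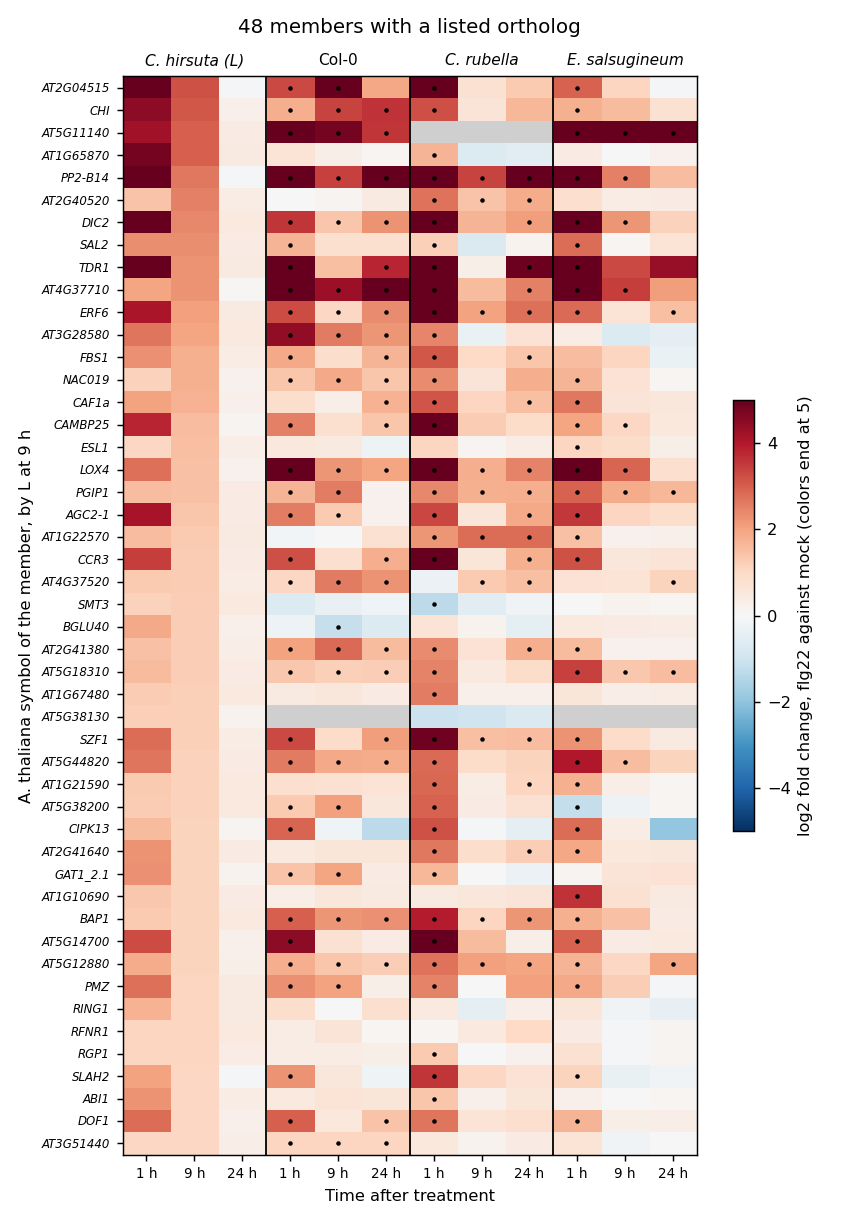
Heatmap of log2 fold changes of flg22 against mock for the 48 genes with a listed ortholog (rows, ordered by L at 9 h) at 1, 9 and 24 h in C. hirsuta (L), Col-0, C. rubella and E. salsugineum (columns), with a dot where edgeR called a change, gray where the gene was not tested, and colors ending at 5. At 24 h many orthologs are induced in Col-0 and C. rubella, where 23 and 20 of 47 were called upregulated, not all of them also at 9 h.

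The mock level was also compared over the 48 genes with orthologs. From 9 h to 24 h its median change was 0.72 in C. hirsuta, −0.01 in Col-0, −0.29 in C. rubella and 0.08 in E. salsugineum, on the log2(CPM + 1) scale. The flg22 level changed by −0.45, 0.14, 0.12 and −0.12 in the same species. The C. hirsuta values follow in part from the rule, and the difference between species was not tested.

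Single orthologs were called against the C. hirsuta direction. Their number was near or below the share of all genes, so nothing is read from it. BGLU40, a beta-glucosidase gene, was the 1 ortholog of 47 downregulated at 9 h in Col-0 (4.55% of all genes), at −1.15 ± 0.26 (edgeR adjusted p = 0.00271). SMT3, a sterol methyltransferase gene, was downregulated at 1 h in C. rubella (−1.29 ± 0.27, adjusted p = 0.00101; 1 of 47, 6.15% of all genes). AT5G38200, a glutamine amidotransferase family gene, was downregulated at 1 h in E. salsugineum (−1.20 ± 0.30, edgeR adjusted p = 0.00607; 1 of 47, 1.71% of all genes). Each of these 3 calls was lost without either of 2 replicates, and those of BGLU40 and AT5G38200 also in limma-voom. These 3 genes were named after their values were seen.

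At 1 h the orthologs were also read in the 5 A. thaliana accessions. Of 47 tested, 29 were upregulated in Can-0 (11.3% of all genes), 28 in Gy-0 (10.5%), 23 in Kn-0 (7.57%), 32 in Kon (12.9%) and 32 in No-0 (13.6%). Of all listed orthologs 31.8%, 29.0%, 21.8%, 36.7% and 37.4% were upregulated in the same order. In all 5 accessions 21 were upregulated, and in none 13. For these 2 counts no share of all genes was computed, and nothing is read from them. ERF6 rose by 2.86 to 4.57 on the log2 scale in the 5 accessions, LOX4 by 4.21 to 7.54 and PP2-B14 by 5.40 to 8.12. The transporter family gene AT1G22570, named after its values were seen, was downregulated in Can-0 (5.15% of all genes), Kon (7.47%), No-0 (7.11%) and Gy-0 (4.32%), where it was the only ortholog called so. In Kon it had 3.12, 2.75 and 2.22 CPM after flg22, against 7.51, 9.23 and 9.38 in mock seedlings. Its log2 fold change was −1.15 ± 0.21 in Can-0, −1.15 ± 0.21 in Gy-0, −1.26 ± 0.23 in Kon and −1.72 ± 0.25 in No-0, and −0.38 ± 0.23 in Kn-0, which was not called. In E. salsugineum the gene had 56, 59.8 and 62.3 CPM after flg22 at 1 h, against 25.1, 23.4 and 28.9 in mock seedlings (1.45 ± 0.11). In Col-0 it had 12.7, 13.1 and 12.8 CPM after flg22 at 1 h, against 13, 13.9 and 17.4 in mock seedlings, and was not called. The gene was thus called in opposite directions in E. salsugineum and in 4 A. thaliana accessions, and in neither direction in Kn-0 and Col-0. All 4 accession calls were lost without the block, and those in Can-0 and Gy-0 also without replicate 2 or 3.

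Lists of immunity genes gave the surroundings of these genes. Of 15 lists with 284 genes, 169 genes were measured in C. hirsuta, of which 3 (ERF6, NAC019 and LOX4) were among the 76 and 62 among the sustained genes. Of 9 ERF genes measured, 7, 5 and 0 had L of at least 1 at 1, 9 and 24 h. In edgeR 7, 5 and 0 of these 9 were upregulated in C. hirsuta, against 11, 10 and 13 of 15 in Col-0, 9, 3 and 6 of 9 in C. rubella and 6, 4 and 1 of 9 in E. salsugineum. The 76 genes are 0.364% of all genes tested, and nothing is read from a list that holds none of them. The sustained genes are 622 of the 20866 genes tested, the background for the counts of sustained genes here. Of 24 WRKY genes measured, 0 were among the 76 and 14 among the sustained genes. Of 15 MYB, NAC and ZAT genes measured, 11 were sustained. Of 14 jasmonate genes measured, 8, 2 and 0 had L of at least 1 at 1, 9 and 24 h, with a median L of 1.04, −0.05 and −0.05. In edgeR 8, 0 and 0 were upregulated in C. hirsuta, against 12, 5 and 3 of 25 in Col-0, 11, 1 and 3 of 15 in C. rubella and 12, 3 and 0 of 15 in E. salsugineum. The shares of all genes given above apply to these counts, the genes measured differ between species, and no difference between species was tested. Of 17 cell wall and peroxidase genes and 11 phenylpropanoid genes measured, 0 were among the 76, while 11 and 7 were sustained.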

How the data were processed

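Whole C. hirsuta, A. thaliana, C. rubella and E. salsugineum seedlings were profiled by strand-specific polyA RNA-seq (102 samples in 34 groups of 3). Reads were cleaned with cutadapt 1.5 and mapped by the authors with TopHat2, each species to its own genome (TAIR10 for A. thaliana). The accessions were mapped to the Col-0 genome and, as a check, to SNP-corrected genomes; which mapping gave their deposited counts is not given in the sources used here. The deposited values are raw counts per gene from HTSeq 0.6.0, which drops reads with no unique place. The summary lines of HTSeq, which name no gene, were left out (15.6% to 21.5% of the C. hirsuta reads). Their share was 12.2% to 50.0% in Col-0, 15.9% to 24.1% in C. rubella and 18.0% to 38.8% in E. salsugineum. Reads with no unique place were 3.68% to 5.72% in C. hirsuta and 8.81% to 42.8% in Col-0. They were 9.39% to 16.7% in C. rubella and 12.0% to 33.4% in E. salsugineum. The part of these differences in the results was not tested.

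The members, gene lists and tests were chosen with earlier results of these data known, and role groups after. CPM used gene rows only. Genes with a mean count of at least 10 were tested with edgeR 4.0.16 (quasi-likelihood F-test, TMM, replicate number as block, Benjamini-Hochberg over all genes tested) in R 4.3.3, in a separate fit for each species and for each accession, and called at an adjusted p below 0.01 and a log2 fold change past 1. The block follows the study's linear model and its side-by-side experiments. Of 51 same-numbered pairs of flg22 and mock deviations, 46 correlated above 0.1 (median 0.41). Each pair lies within 1 time, whereas the block was shared over the 3 times of a species, so these values do not test it. In Col-0 they were 0.21, 0.63 and 0.55 at 9 h and 0.07, 0.09 and −0.08 at 24 h in replicates 1, 2 and 3. No 2 libraries were identical. The fit was tested on simulated data. Orthologs came from the study's lists of 1:1 orthologs, of which 4541 were at hand, mostly responsive genes. Genes with at most 3 mock counts are given as CPM without a fold. Genes named by rule were members on a list, the 12 members with an ortholog, a mean count of at least 100 and the highest L at 9 h, those upregulated at 24 h in all 3 other species, those with a lower effect at 24 h than at 9 h in another species, the nearest to each threshold, and 2 members without ortholog with the highest L at 9 h. All other genes were named after their values were seen. Alternatives were size factors of DESeq2 1.42.0, DESeq2, limma-voom 3.58.1, no block, no count filter, another pseudocount (0.1 CPM), TMM-scaled CPM and leaving out each replicate.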

Additional observations from a re-analysis of the deposited data

Results flagged for a closer look

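The flg22 effect on PGIP1 in Col-0 differed between the 2 later times, as a test of the difference in edgeR gave (−2.35 at 24 h minus 9 h, log2 scale). The call was lost without the replicate block and without any 1 replicate. The flg22 level was lower, and the mock level higher, at 24 h than at 9 h in every replicate.

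AT1G22570 moved in opposite directions at 1 h between genotypes. It was higher after flg22 in all 3 pairs in C. rubella and in E. salsugineum, and lower in all 3 pairs in Kon, Can-0, No-0, Gy-0 and Kn-0, with −1.72 in No-0 as the lowest log2 fold change. In Col-0 the gene was not called at 1 h. The difference between these genotypes was not tested. In C. rubella the gene was near the detection limit, at 0.566, 1.12 and 0.398 CPM after flg22 and 0.19, 0.226 and 0.113 CPM in mock seedlings.

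AT3G28580 at 24 h was higher after flg22 in all 3 pairs in Col-0 (2.19 ± 0.37, not called without replicate 1) and lower in all 3 pairs in E. salsugineum (−0.49 ± 0.40, edgeR adjusted p = 0.45). The change in E. salsugineum was not called, and the difference was not tested.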

How the results depend on the processing

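The choice of genes depended on replicate 1. Leaving out each replicate gave 51 to 289 genes in place of 76, with 289 without replicate 1. With TMM-scaled library sizes, a pseudocount of 0.1 CPM or no count minimum the number stayed within 1.5 times of 76. With each replicate left out in turn, the upregulated orthologs in Col-0 ranged from 28 to 32 (1 h), 17 to 23 (9 h) and 15 to 23 (24 h). In C. rubella the ranges were 34 to 36, 0 to 6 and 11 to 20, and in E. salsugineum 25 to 30, 2 to 10 and 3 to 5. For 24 h, Col-0 had its lowest count (15) without replicate 1, C. rubella had 11 without replicate 2 and 12 without replicate 3, and E. salsugineum had 3 without replicate 1. For 9 h, C. rubella had 6, 0 and 2 with replicates 1, 2 and 3 left out, and E. salsugineum had 5 with replicate 2 left out and 2 with replicate 3. The effect at 24 h minus 9 h in Col-0 was called lower for 0 to 0. In the accessions the ranges were 28 to 33 in Can-0, 25 to 28 in Gy-0, 23 to 26 in Kn-0, 31 to 32 in Kon and 30 to 32 in No-0.

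Without the replicate block, E. salsugineum had 4 upregulated orthologs at 9 h and 2 at 24 h. In Col-0, 0 were then lower at 24 h than at 9 h, and DESeq2 called 5. DESeq2 called 10 upregulated at 24 h in E. salsugineum. The block moved no other count by over 1.5 times. Size factors of DESeq2, no filter on low counts and limma-voom left all 17 counts within 1.5 times.

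Of 1168 alternative values of 146 single-gene fold changes, 1065 kept direction and side of the threshold, 81 fell short of it, 21 passed it and 1 changed sign. That was PGIP1 at 24 h in Col-0, −0.0067 without replicate 2 and up to 0.41 without replicate 3. The causes were not tested, beyond fewer samples where a replicate was left out. With 3 pairs per time, differences between 9 h and 24 h were rarely detectable, and an ortholog not called is not shown to be unchanged.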
